A study of Mus musculus with 76 samples.

Results

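Endothelial cells, and the barrier that those of the brain form against the blood, were followed through 9 genes of the 56923 in the count tables. They were named for their known roles in endothelium. Pecam1, Cdh5 and Kdr mark endothelium in general, Cldn5, Slc2a1, Mfsd2a, Abcb1a and Slco1a4 mark the blood-brain barrier, and Plvap marks leaky vessels. The samples were diencephalon of mouse embryos at the embryonic stages E11.5 and E17.5 (days of gestation), either wild type (C57BL/6J) or hs754-humanized. The humanized mice were made by Cas9 editing of C57BL/6J embryos followed by backcrossing, and were homozygous for the human hs754 enhancer sequence in place of the mouse sequence. RNA was sequenced from 4 replicates per genotype and stage. For each genotype, histone marks were mapped by ChIP-seq in 2 replicates of the earlier stage and 3 of the later one, and the insulator protein CTCF in 3 of the later stage only. A replicate pooled the diencephalon of 6 littermates at the earlier and 3 at the later stage, so that the values below average over animals and over every cell type of the tissue.

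The vessels of the central nervous system grow into the neural tube from outside and form their barrier as they mature. Tight junctions seal the endothelial cells to each other, transport through vesicles is kept low, and carriers and efflux pumps decide which molecules cross. Wnt ligands from neural progenitors signal through beta-catenin in the endothelium and favor barrier genes over Plvap, which forms the diaphragms of fenestrae and vesicles and is retained where vessels stay permeable, such as in the choroid plexus and the pituitary.

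On the mm39 build (also called GRCm39), the pan-endothelial genes were Pecam1 (ENSMUSG00000020717.20, chr11:106543689-106641454, minus strand), Cdh5 (ENSMUSG00000031871.10, chr8:104828231-104871143, plus strand) and Kdr (ENSMUSG00000062960.11, chr5:76093487-76139884, minus strand). The barrier genes were Cldn5 (ENSMUSG00000041378.3, chr16:18595597-18597012, plus strand), Slc2a1 (ENSMUSG00000028645.12, chr4:118965908-118996365, plus strand), Mfsd2a (ENSMUSG00000028655.12, chr4:122840643-122855244, minus strand), Abcb1a (ENSMUSG00000040584.9, chr5:8710022-8798575, plus strand) and Slco1a4 (ENSMUSG00000030237.15, chr6:141751165-141802036, minus strand). Plvap (ENSMUSG00000034845.7) lay at chr8:71948674-71964506 on the minus strand.

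The promoters of the barrier genes differed widely in base composition. The RefSeq promoter table (build GRCm38.p6, windows of 300 bases) held 6 of the 9 genes, and its sequences were placed on GRCm39 by exact match. Pecam1, Cdh5 and Plvap were without an entry. The bases just upstream of the start are printed for Cldn5, whose promoter had H3K27ac in the wild type lists of E17.5 only, for Slc2a1, whose promoter carried CTCF, and for Slco1a4, whose promoter carried no peak of any mark. They lie at chr16:18595347-18595596 (plus strand), chr4:118965692-118965907 (plus strand) and chr6:141802037-141802196 (minus strand), and capitals mark CpG dinucleotides.
Cldn5: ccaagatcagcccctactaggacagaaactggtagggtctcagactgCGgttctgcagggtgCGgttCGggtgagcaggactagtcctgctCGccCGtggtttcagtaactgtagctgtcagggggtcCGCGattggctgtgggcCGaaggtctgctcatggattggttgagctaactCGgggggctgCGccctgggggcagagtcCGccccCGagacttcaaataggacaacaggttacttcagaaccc
Slc2a1: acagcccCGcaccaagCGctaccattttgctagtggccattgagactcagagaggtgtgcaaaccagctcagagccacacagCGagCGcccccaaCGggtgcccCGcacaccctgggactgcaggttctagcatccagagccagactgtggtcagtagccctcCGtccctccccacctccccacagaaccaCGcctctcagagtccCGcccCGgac
Slco1a4: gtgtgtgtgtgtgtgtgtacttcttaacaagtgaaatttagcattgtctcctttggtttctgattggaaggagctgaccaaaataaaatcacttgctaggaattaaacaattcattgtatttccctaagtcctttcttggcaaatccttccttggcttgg
The printed stretches hold 12 CpGs in 250 bases for Cldn5, 10 in 216 for Slc2a1 and 0 in 160 for Slco1a4. Over the whole window, GC content was 58.3% for Cldn5, 65.3% for Slc2a1 and 40.7% for Slco1a4, against a median of 52.7% for the 32841 promoters of the table. The observed over expected CpG ratio of Slco1a4 was 0.0817, while that of Cldn5 was 0.476, that of Slc2a1 was 0.605 and the median was 0.384. Cores of the motifs of ETS factors (CGGAAG or AGGAAG), SOX factors (ACAAT) and LEF/TCF factors (ATCAAAG) were searched on both strands of the 250 bases before the start. Slco1a4 held the SOX core 3 times, at -208, -144 and -137, and the ETS core once, at -104, without overlap. Neither Cldn5 nor Slc2a1 held any of the cores. Positions are counted from the RefSeq start. The printed bases of Slc2a1 and Slco1a4 end before it, at another annotated start further upstream. Of all promoters, 39.2% held the ETS core, 27.7% the SOX core and 3.21% the LEF/TCF core.

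The RNA libraries held 16414369 to 24272569 counts on genes. In wild type E17.5 replicate 1, 6344 of 20234 genes were more than 2-fold away from the mean of the other replicates of its group, against 26 to 501 genes in the other 15 libraries. Marker sums, in CPM (counts scaled to library size, after TMM normalization), in that library were above those of the other 3 of its group for erythroid cells (1031 against 242 to 460), macrophages and microglia (94.5 against 38.8 to 44.4) and meninges (732 against 431 to 491). Changes in wild type with age are therefore given with and without it where it moved them. Over all libraries, the sum of 5 neuron markers was 1022 to 1615 CPM at E11.5 and 3920 to 5086 at E17.5, in keeping with the labelled tissue. The sum of 10 erythroid markers was 1756 to 5629 at E11.5 and 242 to 1031 at E17.5, and that of 8 meningeal markers was 1431 to 1950 and 357 to 732. The part of these other cell types in the changes below was not tested.

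Expression is likewise given in CPM, in the order of replicates 1 to 4. Between E11.5 and E17.5 the leaky-vessel gene Plvap fell, while Cldn5, Abcb1a and Slco1a4 rose, in both genotypes. Slc2a1, also a barrier gene, fell, and Mfsd2a passed the test in neither genotype. Of the 9 genes, 3 were called higher and 2 lower at E17.5 in wild type (adjusted p under 0.05), where 29.0% of 18583 genes tested were called higher and 26.7% lower. In the humanized diencephalon 3 were called higher and 4 lower, against 38.2% and 39.5% of 18781 genes. Without wild type E17.5 replicate 1, 3 were called higher and 4 lower in wild type (Slc2a1, Plvap, Cdh5 and Pecam1), against 36.0% and 36.3% of 19351 genes. The number of called genes was thus near the background in each of these comparisons, and the description rests on the direction and size of each gene's change. The median log2 fold change of the 9 genes was -0.04 in wild type and -0.23 in humanized samples, against -0.01 and -0.04 over all genes. In bulk tissue, fewer endothelial cells and less RNA per cell cannot be told apart.

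**Figure D1:**
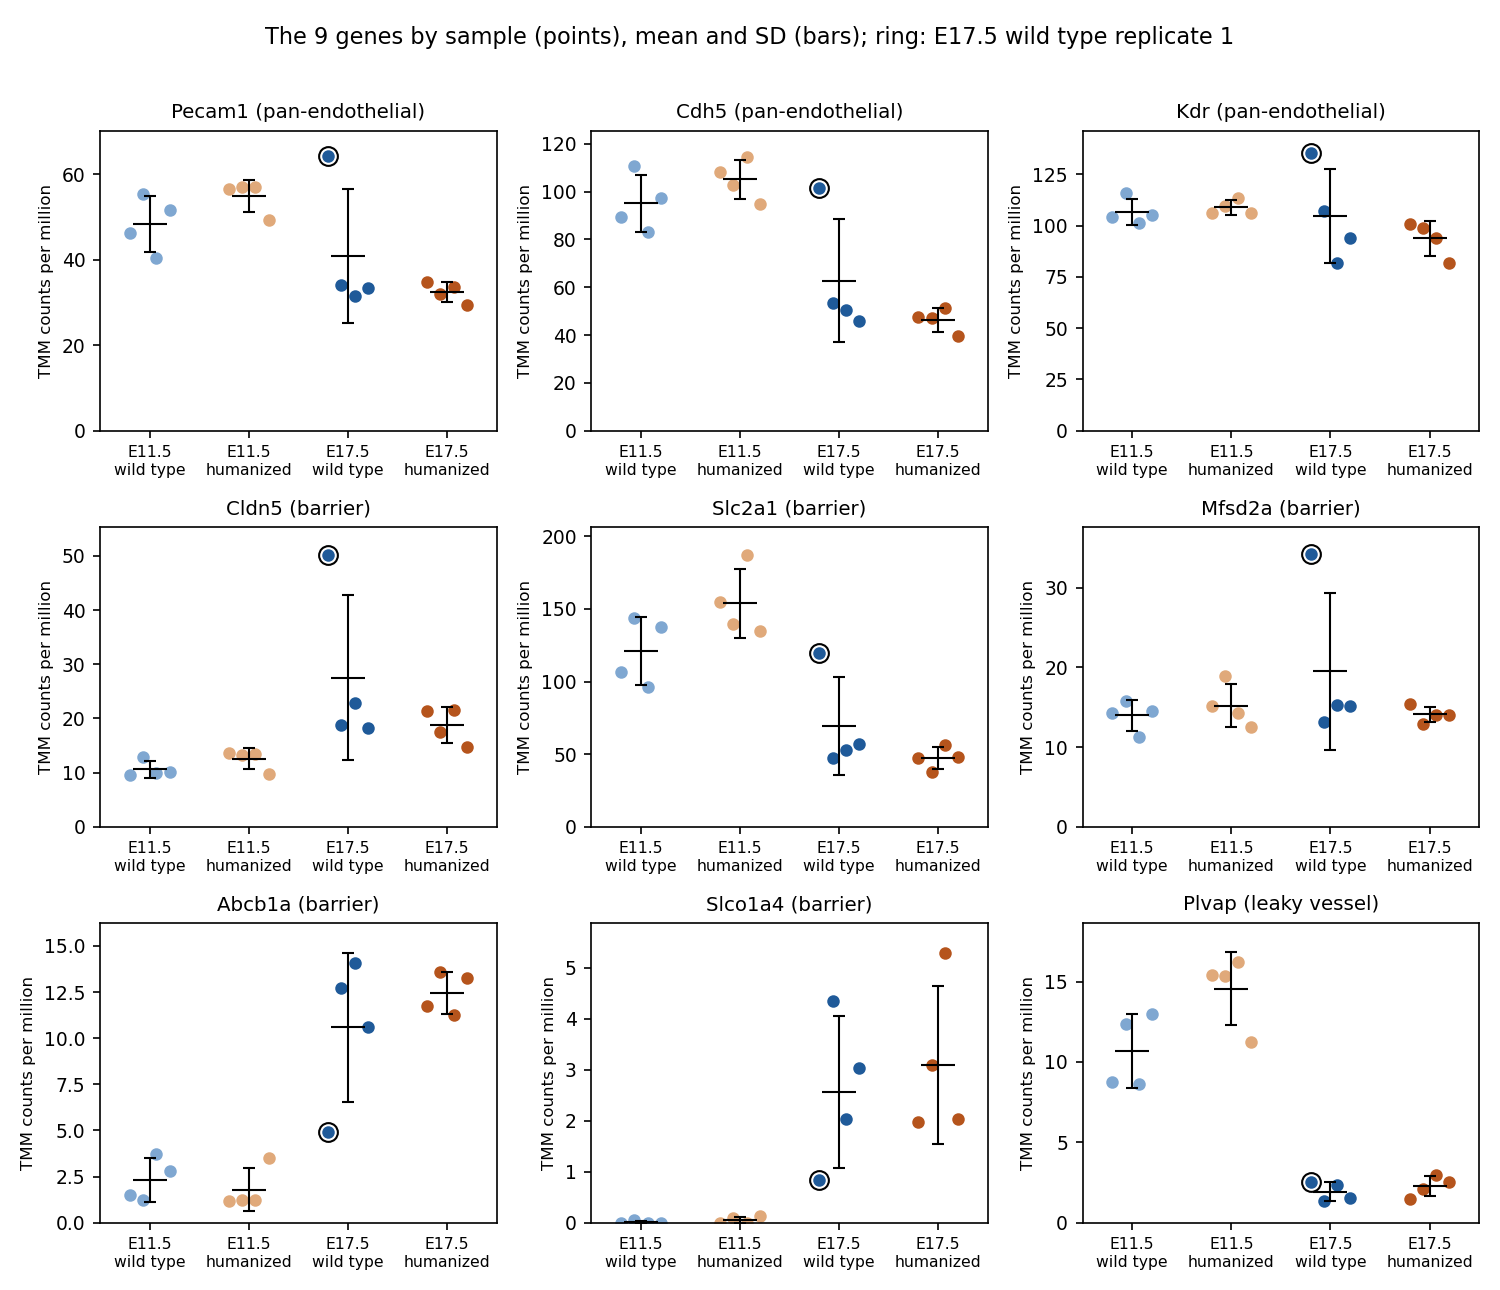
Levels in CPM of the 9 genes in each of the 16 RNA samples (points), by stage and genotype, with the mean and SD of each group and a ring around E17.5 wild type replicate 1. Plvap lies at 8.6 to 16.2 at E11.5 and at 1.36 to 2.98 at E17.5, and the ringed sample lies apart from its group for Pecam1, Cdh5, Cldn5, Slc2a1 and Mfsd2a.

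Plvap is the gene of the diaphragm protein of fenestrated and immature vessels. In wild type it was at 8.77, 12.4, 8.6 and 13 CPM at E11.5 and at 2.56, 1.36, 2.34 and 1.52 CPM at E17.5. The humanized samples had 15.4, 15.3, 16.2 and 11.2 CPM at E11.5 and 1.49, 2.12, 2.98 and 2.55 CPM at E17.5. Every E11.5 sample was above every E17.5 sample. The means were 10.7 ± 2.32 and 1.94 ± 0.595 CPM in wild type (SD, n = 4 each), a ratio of 5.49, and 14.6 ± 2.26 and 2.29 ± 0.634 CPM in humanized samples, a ratio of 6.37. The log2 fold change was -2.47 (SE 0.27, adjusted p = 2.83e-05) in wild type, -2.64 without replicate 1 (adjusted p = 1.07e-06), and -2.68 in humanized samples (SE 0.21, adjusted p = 2.03e-07). Markers of 2 sites where Plvap persists were measured beside it. The sum of 7 choroid plexus markers was 296 to 348 CPM at E11.5 and 139 to 560 CPM at E17.5. Of these 7, 3 were called higher and 1 lower at E17.5 in wild type, 4 and 2 without replicate 1, and 3 and 2 in humanized samples. Shares of all genes were 29.0% and 26.7%, 36.0% and 36.3%, and 38.2% and 39.5%, in the same order. Median log2 fold changes of the 7 markers were 0.63, 0.66 and 0.23. The sum of 9 pituitary markers was 45.4 to 87.2 and 26.5 to 41.9 CPM, with 2 pituitary genes at 0 in all 16 samples. Only 2 of these 9 passed the count filter, to be read against the same shares of all genes. Of these, 1 was called higher and 1 lower at E17.5 in wild type, with or without replicate 1, and 0 and 1 in humanized samples. The sum therefore rests on few genes that differed in direction in wild type.

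Cldn5 encodes claudin-5, the main claudin of the endothelial tight junction in brain. Its levels in wild type were 9.48, 12.9, 9.96 and 10.1 CPM at E11.5 and 50.2, 18.8, 22.9 and 18.3 CPM at E17.5. In humanized samples they were 13.7, 13.3, 13.5 and 9.71 CPM at E11.5 and 21.3, 17.47, 21.5 and 14.7 CPM at E17.5. The stages did not overlap in either genotype, and the value of 50.2 CPM came from the library that stands apart. Means rose from 10.6 ± 1.57 to 27.5 ± 15.2 CPM in wild type and from 12.6 ± 1.90 to 18.7 ± 3.29 CPM in humanized samples (SD, n = 4 each). In wild type the log2 fold change was 1.36 (SE 0.33, adjusted p = 0.00475) with replicate 1 and 0.89 without it (adjusted p = 0.000214), where the E17.5 mean was 20 ± 2.53 CPM (n = 3). In humanized samples it was 0.57 (SE 0.16, adjusted p = 0.00571). When all 16 samples were fitted together, the humanized change was 0.58 with an adjusted p of 0.0630, and was no longer called.

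Abcb1a and Slco1a4 were the barrier genes with the lowest levels at E11.5. Abcb1a encodes the P-glycoprotein efflux pump of brain capillaries. In wild type it was at 1.49, 1.22, 3.74 and 2.80 CPM at E11.5, and at 4.91, 12.7, 14.1 and 10.6 CPM at E17.5. In humanized samples it was at 1.17, 1.21, 1.24 and 3.52 CPM, then at 11.7, 13.6, 11.2 and 13.3 CPM. All E17.5 values were above all E11.5 values, and the library that stands apart, so high for Cldn5, had the lowest Abcb1a level of the E17.5 samples. The log2 fold change was 2.17 in wild type (SE 0.42, adjusted p = 0.00134), 2.4 without replicate 1 (adjusted p = 1.11e-05) and 2.75 in humanized samples (SE 0.33, adjusted p = 8.63e-06). Abcb1b, a paralog of high sequence similarity, had a log2 fold change of 0.28 in wild type (adjusted p = 0.582) and 0.98 in humanized samples (adjusted p = 0.0357). Its means were 0.562 to 1.13 CPM. Reads that match both paralogs may be missing from their counts, so both levels are uncertain.

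Slco1a4 encodes an organic anion transporter of brain capillaries and was nearly silent at E11.5. Raw counts in wild type were 0, 1, 0 and 0 at E11.5, then 16, 80, 41 and 72 at E17.5, and in humanized samples 0, 2, 0 and 3 at E11.5, then 37, 51, 94 and 32 at E17.5. No sample of one stage reached the level of the other. The sums of 1 and 209 counts in wild type gave a ratio of 213 after scaling for library size, with an exact 95% interval of 37.8 to 8441 that covers counting error only. In humanized samples, 5 and 214 counts gave a ratio of 53.9 (22.8 to 168). The adjusted p was 5.11e-05 in wild type, 3.92e-07 without replicate 1 and 3.95e-06 in humanized samples.

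Slc2a1 encodes the glucose carrier GLUT1, which is highest in brain endothelium but also present in other cells. In wild type it was at 106, 144, 96.1 and 137 CPM at E11.5 and at 120, 47.6, 53.1 and 56.7 CPM at E17.5. In humanized samples it was at 155, 140, 187 and 135 CPM, then at 47.2, 37.9, 56.4 and 48.2 CPM. Only the E17.5 wild type replicate 1 reached the E11.5 range. The fall was called in wild type (log2 fold change -0.81, SE 0.30, adjusted p = 0.0391), but leaving out any of E11.5 replicates 1, 2 and 4 or E17.5 replicates 2, 3 and 4 gave adjusted p values of 0.0547 to 0.110. Without E17.5 replicate 1 the change was -1.23 (adjusted p = 1.81e-05), and in humanized samples it was -1.71 (SE 0.14, adjusted p = 3.83e-07).

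Mfsd2a encodes the lysophospholipid transporter that restrains vesicle transport across the barrier. Levels in wild type were 14.3, 15.8, 11.3 and 14.5 CPM at E11.5 and 34.3, 13.2, 15.3 and 15.2 CPM at E17.5. In humanized samples they were 15.1, 18.9, 14.3 and 12.5 CPM, then 15.4, 12.9, 14 and 14.1 CPM. The stages overlapped in both genotypes, and apart from the value of 34.3 CPM all samples lay between 11.3 and 18.9 CPM. Its log2 fold change was 0.47 in wild type (SE 0.30, adjusted p = 0.206), 0.04 without replicate 1 (adjusted p = 0.826) and -0.12 in humanized samples (SE 0.14, adjusted p = 0.450).

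The pan-endothelial genes were level or lower at E17.5. Pecam1, the adhesion molecule CD31 of endothelial contacts, was at 46.2, 55.3, 40.4 and 51.6 CPM in wild type at E11.5 and at 64.2, 34.1, 31.4 and 33.3 CPM at E17.5. Humanized samples had 56.5, 57.0, 57.0 and 49.3 CPM, then 34.8, 32.0, 33.6 and 29.5 CPM. The stages were separate in the humanized samples and, in wild type, separate once replicate 1 was left out. The log2 fold change was -0.26 in wild type (SE 0.25, adjusted p = 0.405), -0.58 without replicate 1 (adjusted p = 0.00192), and -0.77 in humanized samples (SE 0.10, adjusted p = 2.43e-05).

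Cdh5, the VE-cadherin of endothelial adherens junctions, had means of 95.1 ± 11.9 and 62.8 ± 25.9 CPM in wild type at E11.5 and E17.5 (SD, n = 4 each). Its E17.5 wild type values were 101, 53.6, 50.6 and 45.7 CPM, the first of them inside the E11.5 range. In humanized samples the means were 105 ± 8.34 and 46.4 ± 5.04 CPM, without overlap. The log2 fold change was -0.61 in wild type (SE 0.26, adjusted p = 0.0663) and passed the threshold without replicate 1 (-0.95, adjusted p = 3.27e-05), with scaling by total counts (-0.75, adjusted p = 0.0186) and in the fit of all 16 samples (-0.60, adjusted p = 0.0171). In humanized samples it was -1.19 (SE 0.11, adjusted p = 1.17e-06).

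Kdr, the main VEGF receptor of endothelium, stayed close to its E11.5 level. Wild type samples were at 104, 116, 101 and 105 CPM at E11.5 and at 135, 107, 81.8 and 93.8 CPM at E17.5, with overlap. Humanized samples were at 106, 110, 114 and 106 CPM, then at 101, 98.8, 94.1 and 81.7 CPM, without overlap. The log2 fold change was -0.04 in wild type (SE 0.19, adjusted p = 0.876), -0.20 without replicate 1 (adjusted p = 0.163) and -0.23 in humanized samples (SE 0.10, adjusted p = 0.0647), and the last was called only with scaling by total counts (-0.32, adjusted p = 0.0161). Counting over all the genes here, the stages did not overlap for 4 of 9 in wild type, against 49.4% of 20234 genes, and for 8 of 9 in humanized samples, against 70.3%. Without E17.5 replicate 1, the stages did not overlap for 7 of 9 in wild type (all but Kdr and Mfsd2a), against 70.9% of genes.

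**Figure D2:**
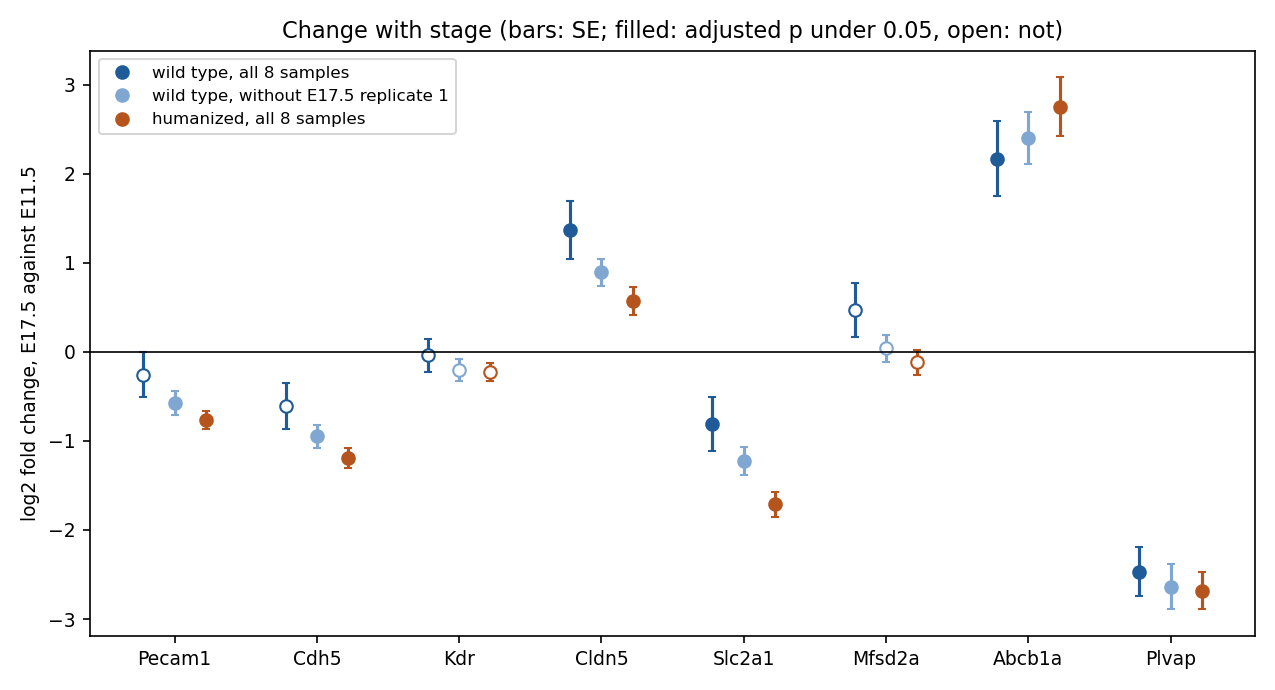
Log2 fold change between E11.5 and E17.5 with its standard error for 8 genes (Slco1a4 is left out for its zero counts), in wild type with and without E17.5 replicate 1 and in humanized samples, filled where the adjusted p was under 0.05. Plvap lies at -2.47, -2.64 and -2.68, and Abcb1a at 2.17, 2.4 and 2.75.

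The order of the levels is given per kilobase of exon, with the exons of all annotated transcripts of a gene merged. This length was 1416 bp for Cldn5, 9199 bp for Kdr and 10002 bp for Pecam1. It may exceed that of the main transcript, so the order depends on it. At E11.5 in wild type, Slc2a1 had the highest mean level at 25.8 CPM per kb, followed by Cdh5 at 21.7, Kdr at 11.6, Cldn5 at 7.5, Mfsd2a at 5.23, Pecam1 at 4.84, Plvap at 2.78 and Abcb1a at 0.376 CPM per kb. Slco1a4 was last at 0.00156 CPM per kb. In this order, Slc2a1 and Cdh5 overlapped over their replicates, as did Mfsd2a and Pecam1, while Kdr, Cldn5, Plvap and Abcb1a were each apart from their neighbours. At E17.5 in wild type, Cldn5 was first at 19.4 CPM per kb, ahead of Slc2a1 at 14.8, Cdh5 at 14.3 and Kdr at 11.4. Over all replicates, Cldn5 overlapped each of these other 3. Without replicate 1 Cldn5 was still first and apart from them, and the other 3 overlapped. Plvap at 0.506 had moved below Abcb1a at 1.72 CPM per kb. The E17.5 humanized samples had Cldn5 at 13.2, Cdh5 at 10.6, Kdr at 10.2 and Slc2a1 at 10.1 CPM per kb. The last 3 of these did not differ beyond their spread, and Cldn5 overlapped each of them over its replicates.

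The contrast of barrier genes with Plvap was measured within each sample, as a log2 ratio that no library scaling can shift. All these ratios share Plvap as the denominator, so they are not independent of each other or of its fall. A gene of constant level would have risen against Plvap by 5.59-fold in wild type, 6.21-fold there without E17.5 replicate 1, and 6.51-fold in humanized samples. For Cldn5, the mean log2 ratio to Plvap in wild type went from 0.01 ± 0.25 to 3.74 ± 0.42, a change of 13.3-fold, and in humanized samples from -0.21 ± 0.04 to 3.06 ± 0.56, a change of 9.69-fold (SD, n = 4 each). Abcb1a rose 26.3-fold and 51.2-fold against Plvap, so that both genes were above the fold of a gene of constant level. Mfsd2a, which showed no called change of its own, lay near that fold, at 7.26-fold in wild type and 6.08-fold in humanized samples. Slc2a1 lay below it at 3.02-fold and 2.00-fold, its own level having fallen. For Slco1a4 the size is not given, since it depends on the 0.5 reads added to its counts because of zero counts. Over 10 tests, every gene gave p = 0.0286 in an exact two-sided permutation test (adjusted p = 0.0286), the smallest that 4 against 4 samples allow, and no ratio overlapped between the stages. As the genes share the Plvap values, this result over many genes is no more evidence than that of few. A gene of constant level would also give the smallest p, since Plvap itself did not overlap between stages. The p therefore does not show that any barrier gene moved. Without E17.5 replicate 1 the wild type folds were 11.7 for Cldn5, 36.8 for Abcb1a, 6.50 for Mfsd2a and 2.72 for Slc2a1, each with p = 0.0571 in the exact test, the smallest that 4 against 3 samples allow.

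**Figure D3:**
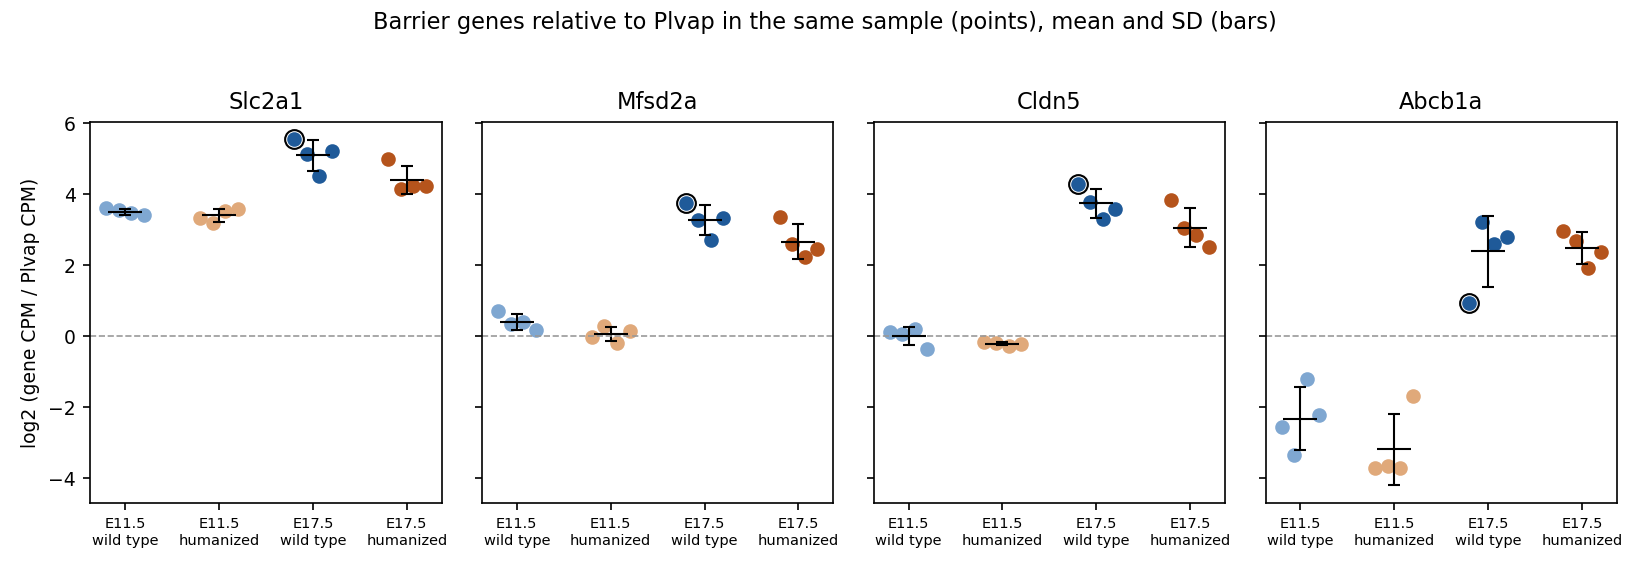
Log2 ratio of CPM of 4 barrier genes to Plvap in each of the 16 RNA samples (points), by stage and genotype, with the mean and SD of each group and a ring around E17.5 wild type replicate 1. The Cldn5 ratio averages 0.01 at E11.5 and 3.74 at E17.5 in wild type, and -0.21 and 3.06 in humanized samples.

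The same genes were set against the mean of Pecam1 and Cdh5, to relate them to pan-endothelial transcripts. Cldn5 was higher 3.33-fold in wild type and 2.92-fold in humanized samples at E17.5 than at E11.5, and Mfsd2a 1.82-fold and 1.83-fold. Plvap was at 0.250 and 0.301 times its E11.5 ratio, and Slc2a1 at 0.756 and 0.603 times. The adjusted p of each of these was 0.0333 in exact permutation tests over 14 comparisons. Pecam1 and Cdh5 were themselves called lower at E17.5 in humanized samples, and in wild type without E17.5 replicate 1. There, a gene of constant level would have risen against them. In humanized samples the log2 fold changes of Mfsd2a and Kdr themselves were -0.12 and -0.23, neither called. The higher ratios of these 2 genes there do not show that either gene rose. Abcb1a was higher 15.4-fold in humanized samples (exact adjusted p = 0.0333), while its log2 difference of 2.72 in wild type had an exact p of 0.0571. Kdr was higher 1.68-fold in humanized samples (exact adjusted p = 0.0333), and its log2 difference of 0.43 in wild type had an exact p of 0.0571. Without E17.5 replicate 1 the wild type folds were 3.14 for Cldn5, 1.74 for Mfsd2a, 0.268 for Plvap, 0.730 for Slc2a1, 9.87 for Abcb1a and 1.46 for Kdr, with no overlap of the stages and an exact p of 0.0571 each.

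Replacement of hs754 was not accompanied by a called change in any of the genes. At E11.5, 8 of them passed the count filter (all but Slco1a4), with humanized over wild type log2 fold changes of -0.38 to 0.42 and adjusted p values of 0.577 to 0.977. The change of 0.42 (SE 0.17, adjusted p = 0.577) was that of Plvap. At E17.5 the log2 fold changes of the 9 genes were -0.57 to 0.27 (adjusted p 0.808 to 0.832), and -0.15 to 0.39 without wild type replicate 1. In this test edgeR called 0 of the 17816 E11.5 genes (0%) and 0 of the 18763 E17.5 genes (0%), where 1058 and 207 genes had an unadjusted p under 0.05 and DESeq2 called 2 genes and 1 gene. The interaction of genotype and stage gave no call among 20234 genes (1610 with an unadjusted p under 0.05, 0 by DESeq2). Slc2a1 had the lowest unadjusted p of the 9 genes there (0.0199), with a log2 difference of -0.90. Without wild type E17.5 replicate 1 that difference was -0.49 (unadjusted p = 0.0382, adjusted p = 0.783, edgeR).

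Other genes of the vessel wall gave a background for these changes. These lists were drawn up by function, and their counts are to be read against the shares of all genes given above, 29.0% higher and 26.7% lower in wild type, 36.0% and 36.3% without E17.5 replicate 1, and 38.2% and 39.5% in humanized samples. Of 20 further pan-endothelial genes, 2 were called higher and 4 lower at E17.5 in wild type, 2 and 8 without replicate 1, and 2 and 11 in humanized samples, with median log2 fold changes of -0.20, -0.39 and -0.72. Mmrn2, a matrix glycoprotein of endothelium, fell by 1.39 on the log2 scale in wild type (adjusted p = 0.0119) and by 1.94 in humanized samples (adjusted p = 5.18e-07). Cd34, a sialomucin of vessel and blood progenitors, fell by 1.05 (adjusted p = 0.0113) and by 1.63 (adjusted p = 8.40e-08). Ptprb, the VE-PTP phosphatase, rose by 0.88 (adjusted p = 0.0179) and 1.10 (adjusted p = 5.48e-06).

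Junction and vesicle genes were split in direction, with 6 of 14 called higher and 4 lower in wild type, with or without replicate 1, and 7 and 5 in humanized samples (medians 0.58, 0.18 without replicate 1, and 0.21). The tight junction gene Ocln rose from 1.98 ± 0.499 to 14 ± 1.59 CPM in wild type and from 2.11 ± 0.668 to 13.8 ± 1.35 CPM in humanized samples (SD, n = 4 each). The caveolar genes Cav1 and Cav2 rose as well, with log2 fold changes of 2.16 and 2.90 in wild type and 2.23 and 3.48 in humanized samples. Ocln is also made by epithelium, and caveolins by many cell types.

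Among 15 further barrier transporters, 7 were called higher and 1 lower in wild type, with or without replicate 1, and 7 and 3 in humanized samples (medians 0.57, 0.33 without replicate 1, and 0.50). Their summed level in that library was 912 CPM, against 590 to 636 CPM in the other 3 of its group. The organic anion carrier Slc22a8 rose from 0.469 ± 0.144 to 18.7 ± 2.29 CPM in wild type (log2 fold change 5.29) and by 4.77 on the log2 scale in humanized samples. Slco1c1, the thyroid hormone carrier, rose by 4.08 and 3.67, and the amino acid carrier Slc38a5 by 2.56 and 1.31. Slc22a8 and Slco1c1 are also present in the choroid plexus, whose marker sums and calls are given above.

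Of 19 genes of Wnt/beta-catenin signalling and barrier regulation, 1 was called higher and 11 lower in wild type, 2 and 14 without replicate 1, and 3 and 12 in humanized samples (medians -0.81, -0.91 and -1.03). The ligand gene Wnt7b fell from 106 ± 30.6 to 21.6 ± 13.7 CPM in wild type, with a log2 fold change of -2.31 (-2.96 in humanized samples). The co-receptor gene Lrp5 changed by -1.85 and -2.52, and Axin2, a target and feedback inhibitor of the pathway, by -1.66 and -2.0. Each of these genes is also expressed by neural progenitors, so these values describe the tissue and not the endothelium alone.

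Of 18 genes of VEGF signalling and sprouting, 8 were called higher and 4 lower in wild type, 8 and 5 without replicate 1, and 8 and 6 in humanized samples (medians 0.30, 0.24 and 0.09). Cxcr4, the chemokine receptor of tip cells and of migrating neurons, had a log2 fold change of -2.85 in wild type and -3.42 in humanized samples, and the receptor gene Notch1 had -2.69 and -3.08. Nrp1, the semaphorin and VEGF co-receptor, rose by 1.90 and 2.38. Of 13 mural cell genes, 12 were tested. Of these, 7 were called higher and 2 lower in wild type, 6 and 4 without replicate 1, and 5 and 5 in humanized samples (medians 0.73, 0.40 and -0.03).

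The pericyte gene Rgs5 rose from 9.59 ± 3.5 to 138 ± 50.8 CPM in wild type and from 5.78 ± 3.54 to 175 ± 23.7 CPM in humanized samples (SD, n = 4 each). Higd1b, another pericyte gene, was at 0.0203 ± 0.0406 and 2.54 ± 0.270 CPM in wild type. The smooth muscle gene Myh11 rose by 2.56 and 2.33 on the log2 scale. No gene of any of these lists was called between genotypes at either stage. Over the same interval the astrocyte markers, of the glia whose endfeet sheathe brain vessels, were called higher for 5 of 6 genes in both genotypes.

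**Figure D4:**
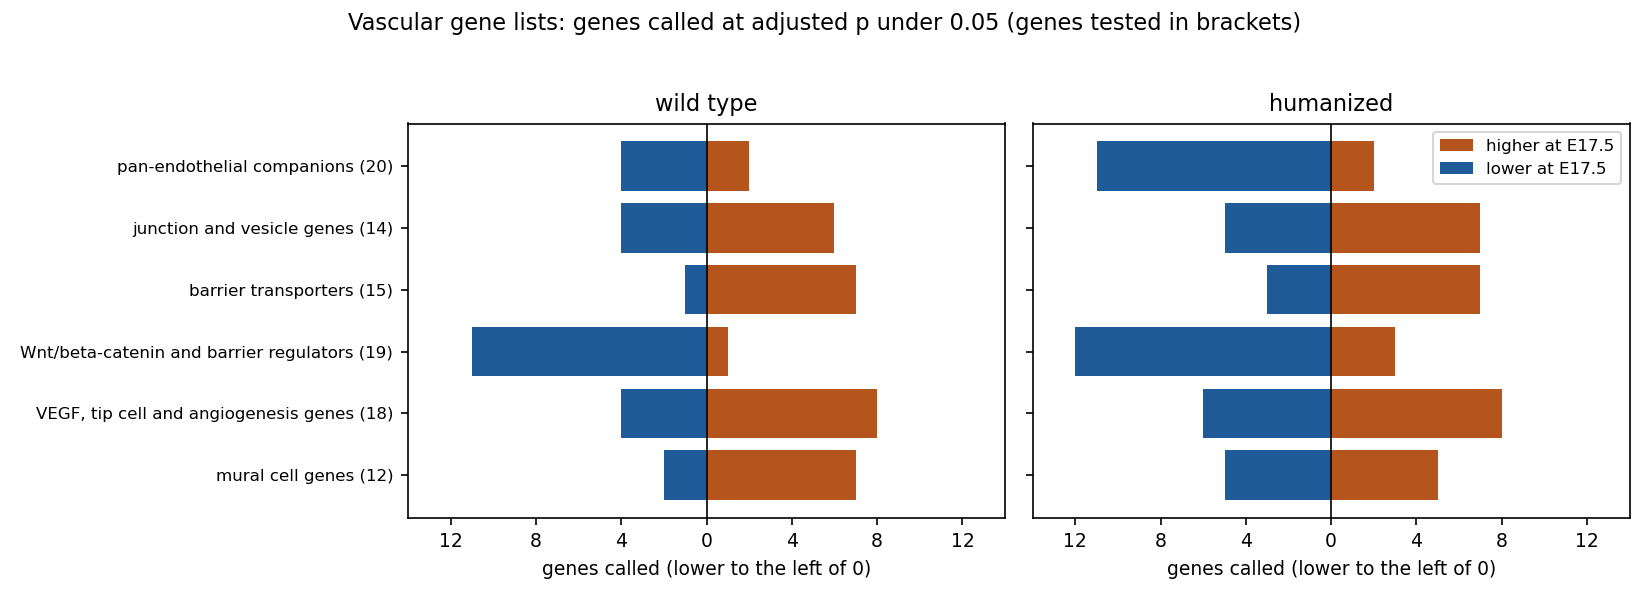
Number of genes called higher (right of 0) and lower (left of 0) at E17.5 than at E11.5 in each of the 6 further lists, in wild type and humanized samples, with the number tested in brackets. The Wnt/beta-catenin list has 11 and 12 genes lower and 1 and 3 higher, and the barrier transporters have 7 higher in both genotypes.

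Chromatin at the promoters was read from peak lists called by replicate, with a promoter counted as marked where a peak overlapped the 1 kb on either side of any annotated start by at least 1 bp. H3K27ac marks active promoters and enhancers. The paper reports that its lot of H3K27ac antibody also bound an acetylated site of another histone, so these peaks may reflect both. H3K4me3 marks promoters open to transcription, and H3K27me3 is laid down by the Polycomb complex where genes are held silent. The tissue holds many cell types, so marks of the endothelium are diluted, and 2 marks at a promoter need not be on the same cells. For Mfsd2a, Cldn5 and Kdr, the window also holds the start of another gene, 99, 161 and 608 bp away, and peaks there cannot be assigned to one of the 2 genes. A start of another gene outside Pecam1 lay 598 bp from one of its starts. The strongest Pecam1 promoter peak of each list lay away from there, inside the gene, between positions 106604364 and 106606682 of chromosome 11.

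H3K27ac was found in every wild type list of E11.5 for 3 of the 9 promoters (Pecam1, Slc2a1 and Mfsd2a), against 49.4% of 21581 protein-coding genes, and in every list of E17.5 for 6, against 59.1%. The promoters of Cdh5 and Cldn5 passed from no E11.5 list to every E17.5 list, a pattern of 7.66% of genes. At Cldn5 the fold enrichment at E17.5 was 6.82, 7.32 and 7.87, in a peak that in replicate 1 spanned chr16:18595704-18598323, over the gene itself. At Cdh5 it was 4.24, 3.49 and 8.10, and at Kdr 4.81 in E11.5 replicate 1 only, then 8.38, 5.01 and 8.17. The lists of E17.5 held 62715 to 77412 peaks and those of E11.5 32415 and 36146, so the chance that a promoter was in a list also differed. With the same number of strongest peaks taken from each list, Cldn5 kept its pattern, and Cdh5 was found in 1 of 3 E17.5 lists.

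With 2 lists against 3, Fisher's exact test cannot go below p = 0.1, which is what Cldn5 and Cdh5 gave. Over both genotypes, Cdh5, Kdr and Cldn5 each had an H3K27ac peak in 1 of 4 E11.5 lists and 6 of 6 E17.5 lists. This gave p = 0.0333 in a two-sided Fisher's exact test, unadjusted. Of 20767 genes, 56.0% had a peak in every E17.5 list, and 4.39% in every E17.5 list and no E11.5 list. The share with 1 of 4 and 6 of 6 lists was not counted. Humanized lists were also longer at E17.5 (47127 to 65176 peaks) than at E11.5 (35664 and 37308). The Slc2a1 promoter was the most strongly acetylated, with fold enrichments of 11.6 and 13.6 at E11.5, then 22.7, 20.6 and 25.3 at E17.5 in wild type. In humanized lists it had 22.6 and 29.8, then 29.7, 25.6 and 11.1, so its stages overlapped there. Plvap, Abcb1a and Slco1a4 had no H3K27ac peak in any wild type list.

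H3K4me3 was found in every E11.5 list for 8 of the 9 promoters, against 65.2% of genes, and in every E17.5 list for 6, against 65.4%. Plvap alone among the 9 had it in both E11.5 lists and in none of the 3 of E17.5, a pattern held by 0.380% of genes. Its E11.5 fold enrichments were low, 4.01 and 4.27, and with a stricter -log10 q of at least 5 the peak was kept in 1 of 2 lists. The humanized lists showed the Plvap peak 2 of 2 times, with fold enrichments of 4.07 and 5.70, and 0 of 3 times. In both genotypes the E11.5 peaks were weak, at percentiles 15.3 to 26.2 of fold enrichment in their lists. Over both genotypes the peak was in 4 of 4 lists against 0 of 6, a pattern held by 0.327% of 20767 genes. The two-sided Fisher's exact test gave p = 0.00476, unadjusted, the smallest that these numbers allow. The enrichment at Cldn5 was 13.2 and 14 at E11.5, then 19.9, 18.5 and 21.4 at E17.5, and at Abcb1a 11.7 and 14.2, then 19.3, 18 and 13. At Slc2a1, where RNA fell, it was 53.0 and 56.0, then 56.7, 59.9 and 45.0. Pecam1 lacked the mark in 1 of 3 E17.5 lists, and Slco1a4 had it in none.

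H3K27me3 was found in every E11.5 list for 3 promoters, against 21.4% of genes, and in every E17.5 list for 5, against 21.6%. Kdr, Cldn5 and Mfsd2a had it in all lists, and with it H3K4me3 in all lists, as 15.6% of genes did. The highest values were at Cldn5, with 17.2 and 12.9 at E11.5, then 13.3, 11.6 and 12.6 at E17.5, and Kdr had 9.41 and 8.23, then 8.14, 7.62 and 7.55. Plvap had a peak of 8.26 in E11.5 replicate 1 and none in replicate 2, whose list was the shortest of this mark with 13845 peaks, and 9.02, 7.30 and 8.06 at E17.5. The Plvap domain was 6359 bp long at E11.5 and 8613, 7394 and 6832 bp at E17.5. Abcb1a likewise had a peak in 1 of 2 lists and then in 3 of 3. Without replicate 2, all 5 genes with the mark at E17.5 had it at E11.5, so a gain at Plvap or Abcb1a rests on that list.

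CTCF, mapped at E17.5, lay at the Slc2a1 promoter in every wild type list with fold enrichments of 13.3, 8.86 and 11.3, over the sequence printed above, and in all 6 lists of both genotypes. It was the only 1 of the 9 promoters with CTCF in every wild type list, against 38.4% of genes (33.2% in every list of both genotypes). Cldn5 had weak CTCF peaks of 3.71 and 2.92 in 2 of 3 wild type lists and none in 3 humanized lists. No mark was found at the Slco1a4 promoter in any wild type list, also at E17.5 when its RNA was at 0.836 to 4.35 CPM.

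**Figure D5:**
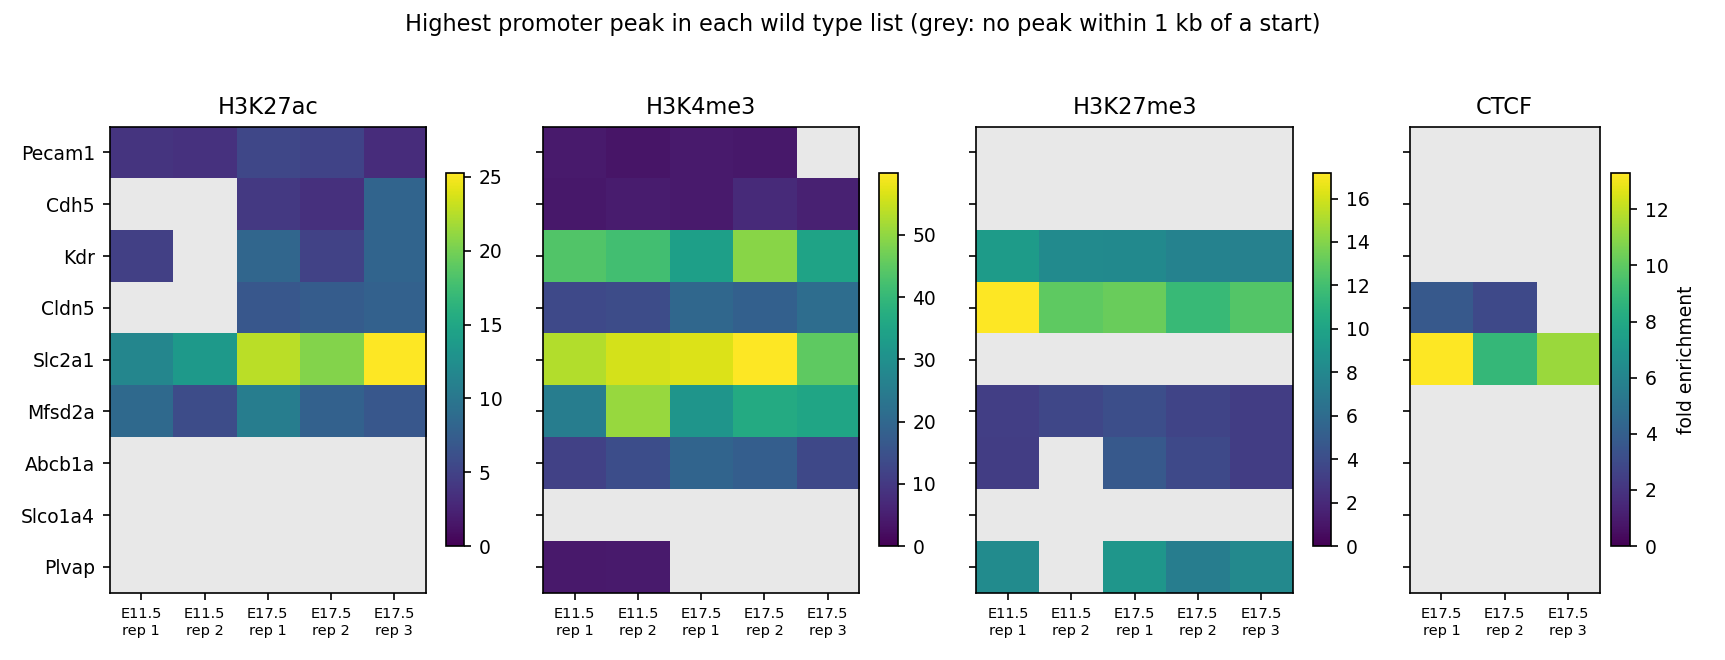
Fold enrichment of the strongest promoter peak of each mark in each wild type list, for the 9 genes, as colour on a scale of its own for each mark, with grey cells where no peak was called. Plvap has H3K4me3 only at E11.5, Cldn5 and Cdh5 have H3K27ac only at E17.5, and Slco1a4 is grey throughout.

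H3K27ac regions away from promoters, within the gene or 20 kb of it, were counted after merging peaks of the wild type lists. Regions present in every E17.5 list and no E11.5 list numbered 4 at Pecam1, 2 at Slc2a1 and 1 at Cdh5, and 34.8% of genes had at least 1. Pecam1 also had 3 regions present in all 5 lists, and Kdr, Slc2a1, Mfsd2a and Plvap had 1 each, against 18.0% of genes with at least 1. The region near Cdh5 lay at chr8:104822648-104823352, upstream of the gene, and those of Slc2a1 included chr4:118967938-118970548 within it. No such region was found around Abcb1a and Slco1a4. With the same number of peaks per list, the number of E17.5-only regions was 2 instead of 7.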

How the data were processed

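Diencephalon RNA-seq (16 samples) and the peak lists of 36 ChIP-seq samples, of which 18 were wild type, were analysed out of 76 samples, and 24 inputs were not analysed here. The authors aligned RNA reads to mm39 with STAR 2.7.9a and deposited raw counts of reads per gene without regard to strand and for each strand. The unstranded column (column 2) was used. Lines that name no gene (48.1% to 58.4% of the reads of a library) were left out. Library protocols with strand were not assumed, so counts of genes that overlap others are less certain. The reverse strand column over the unstranded one was 0.936 to 1.10 for the 9 genes. The authors used GENCODE release 31, and release 39 supplied names and positions here for 56236 of 56923 gene IDs (98.8%). For ChIP-seq the authors aligned with Bowtie2 2.4.2 and ran MACS2 2.2.7.1 on every replicate separately. Each deposited peak has a fold enrichment (a ratio to local background), p-values and q-values as -log10, and a score. How the broad H3K27me3 lists were called is not given in the sources used here, and the read depth behind peaks is unknown. Humanized samples were aligned by the authors to a genome with the human sequence, so that positions on chromosome 13 differ, and that chromosome was left out wherever humanized lists were used.

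Counts were filtered with filterByExpr, normalized by TMM and tested with the quasi-likelihood test of edgeR 4.0.16 (limma 3.58.1, R 4.3.3) on the 8 samples of a comparison, and on all 16 for the interaction, with Benjamini-Hochberg adjustment over all genes tested. For within-sample ratios, a gene with a zero count in any sample had 0.5 reads added in every sample. The ratios were tested by exact permutation. Peaks were compared by Fisher's exact test. Replicates were pools of separate litters. Python 3.11.15, numpy 2.4.6, pandas 2.3.3, scipy 1.17.1 and matplotlib 3.10.9 were used. On simulated data, edgeR called 83.3% of genes changed 4-fold between stages in wild type and 92.4% in humanized samples, and 25.4% and 2.99% of genes changed 1.5-fold between genotypes at E11.5 and E17.5.

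Alternatives were DESeq2 1.42.0 and its size factors, scaling by total counts, no filter, the reverse strand column, all 16 samples in a single fit, replicate numbers as blocks, other promoter windows and peak thresholds, the same number of peaks per list, and leaving out each replicate. The members and the gene lists were chosen with earlier results of these data known. Named genes were the members and, from each list, up to 3 genes with the largest change in wild type among those called in the same direction in both genotypes, and the 5 protein-coding genes most correlated with Cldn5 and with Plvap.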

Additional observations from a re-analysis of the deposited data

Results flagged for a closer look

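In 9 of 36 groups of 4 samples (9 genes in 4 groups), 1 sample lay far from the other 3 by Dixon's criterion, which chance alone meets in about 1 of 20 groups. In 5 of them it was the E17.5 wild type replicate 1 that was highest. That library had 64.2 CPM of Pecam1 where the next sample had 34.1, 101 CPM of Cdh5 (next 53.6), 50.2 CPM of Cldn5 (next 22.9), 120 CPM of Slc2a1 (next 56.7) and 34.3 CPM of Mfsd2a (next 15.3). Kdr, Abcb1a, Slco1a4 and Plvap did not meet the criterion there.

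In the E11.5 humanized group, replicate 4 was the sample apart for 3 genes. It was the lowest for Pecam1 at 49.3 CPM, where the next had 56.5, and for Cldn5 at 9.71 CPM, where the next had 13.3. For Abcb1a it was the highest, at 3.52 CPM against 1.24 in the next. The remaining case was Slco1a4 in the E11.5 wild type group, where replicate 2 had 0.0530 CPM, from 1 read, and the other samples were at 0.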

How the results depend on the processing

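Called directions of Plvap, Cldn5, Abcb1a and Slco1a4 between stages, and the absence of calls between genotypes, were the same under every alternative run, except Cldn5 in humanized samples as given in the report. The number of members called lower in wild type was 1 to 4 when a replicate was left out (1 without E11.5 replicate 1, 2 or 4 or E17.5 replicate 2, 3 or 4, and 4 without E17.5 replicate 1). Small values without a call turned sign. For Kdr this was the stage change in wild type, at 0.0104 with DESeq2 size factors, 0.000299 with DESeq2 and -0.199 to 0.0786 with a replicate left out, and the genotype difference at E11.5, at -0.00413 with DESeq2 size factors and -0.0232 to 0.0459 with a replicate left out. The genotype differences of Mfsd2a at E11.5 (-0.0222 to 0.178) and of Abcb1a at E17.5 (-0.00763 to 0.411) likewise turned. Abcb1a against Pecam1 and Cdh5 in wild type passed the threshold with the reverse strand column (2.69).

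Replicate numbers were shared between groups, and deviations of same-numbered samples correlated at -0.55 to 0.39 between stages. Between genotypes they correlated at 0.03 to 0.17 at E11.5, and at 0.54, 0.58, 0.09 and 0.22 at E17.5. Not every pair exceeded 0.1, so the numbers were not taken as a pairing. Whether same-numbered E17.5 samples shared a batch was not tested. Between genotypes, the block gave 717 instead of 207 genes with an unadjusted edgeR p under 0.05 at E17.5, and 998 instead of 1058 at E11.5. With the replicate number as a block, members called higher and lower were 3 and 2 in wild type and 3 and 4 in humanized samples, as without it, none was called between genotypes, and the calls over all genes in wild type were 4883 and 4583 instead of 5393 and 4963. With the block the exact ratio tests cannot go below p = 0.125.

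Counts of promoters depended on the overlap asked for. With at least 50% of the peak in the window, H3K27ac was in every E17.5 list for 2 promoters, H3K4me3 in every E11.5 list for 5 and every E17.5 list for 1, and H3K27me3 in every E17.5 list for 1. H3K27me3 was in every E11.5 list for 5 promoters in the humanized lists and for 3 to 5 with a wild type list left out, and in every E17.5 list for 3 with a -log10 q of at least 5. CTCF was found in every list for 2 promoters with a window of 2500 bp and for 1 to 2 with a list left out. E17.5-only distal H3K27ac regions numbered 11 within 50 kb and 2 with the same number of peaks per list. The cause of these shifts was not tested, and genes with few counts, as Abcb1a and Slco1a4 at E11.5, are limited by depth.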

Other observations

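How the genes varied within groups was described after subtracting each group's mean log2 CPM, over 16 samples that share library depth and composition with each other. Among the members, Pecam1 and Cdh5 varied most closely together (Pearson r = 0.961, 0.897 without E17.5 wild type replicate 1), and Cldn5 followed Cdh5 (0.942 and 0.863). Abcb1a ran opposite to Cldn5 (-0.703 and -0.607), although both rose with age. Among 13676 protein-coding genes with a mean of at least 1 CPM, those most like Cldn5 were Pskh1 (r = 0.980, Spearman's rho = 0.968), Klhl22 (0.976), Klhl26 (0.976), Dpp3 (0.975) and Qars1 (0.973). For Pskh1, r was 0.942 without the 2 samples farthest from the median of Cldn5, which were E17.5 wild type replicates 1 and 4. Those most like Plvap were Qprt (r = 0.911, rho = 0.95), Espl1 (0.905), Mettl23 (0.878), Tpcn2 (0.877) and Slc1a5 (0.877), and for Qprt r was 0.886 without the 2 farthest samples. None of these 10 genes is in the endothelial lists, and no test was made of these correlations.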
